A study of Mus musculus with 6 samples.

Results

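The table of cold-acclimated inguinal fat held 24 transcripts of the mitochondrial genome among 16538 rows. They were taken by their identifiers, which begin with ENSMUST where the other rows carry gene symbols, and all 24 matched a gene on the mitochondrial chromosome of the GENCODE M21 annotation (GRCm38). They comprised 2 rRNAs, 14 tRNAs and 8 mRNAs, of which 17 are annotated on the plus strand and 7 on the minus strand. The annotation holds 37 mitochondrial genes, and the remaining 13 (the mRNAs mt-Co2, mt-Co3, mt-Atp6, mt-Atp8 and mt-Nd4l, and 8 tRNAs) were not analysed here. RNA-Seq was performed on inguinal white adipose tissue (iWAT) of 2 groups of mice kept at 8°C, for 10 days by the labels. The control group (genotype wt in the labels, fl/fl littermates in the study's account) and the AKO group (NRG4-AKO, in which Adiponectin-Cre deletes the neuregulin gene Nrg4 in adipocytes) each had 3 samples, and each sample was RNA pooled from 2 mice. Both groups were chow fed and cold exposed, so the comparison asks how loss of adipocyte Nrg4 changed the tissue under cold, and no sample kept warm was analysed here. The labels give neither sex nor age, and whole tissue was used, so that fewer cells of a type and less RNA per cell cannot be told apart.

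The mitochondrial genome is a compact circle that is transcribed from both strands into long precursor RNAs. Most of its rRNAs and mRNAs are flanked by tRNAs, and the excision of these tRNAs releases the other transcripts, an arrangement known as tRNA punctuation. The rRNAs lie first on the plus-strand precursor and form the core of the mitochondrial ribosome, the mRNAs encode subunits of respiratory complexes I, III, IV and V, and mt-Nd6 is the only mRNA read from the opposite strand. In brown and beige adipocytes the respiratory chain builds the proton gradient that UCP1 dissipates as heat, and these cells are rich in mitochondria.

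Because the transcripts are joined head to tail in the precursor, the sequences at their borders are shown first. The bases below run from the end of mt-Rnr1 (the 12S rRNA) through the valine tRNA mt-Tv into mt-Rnr2 (the 16S rRNA), and then from the end of mt-Rnr2 through the leucine tRNA mt-Tl1 into mt-Nd1, with the tRNA in capitals. No base separated the tRNA from its neighbors in either window.
mt-Rnr1, mt-Tv, mt-Rnr2 (GRCm38, plus strand, chrM:965-1153): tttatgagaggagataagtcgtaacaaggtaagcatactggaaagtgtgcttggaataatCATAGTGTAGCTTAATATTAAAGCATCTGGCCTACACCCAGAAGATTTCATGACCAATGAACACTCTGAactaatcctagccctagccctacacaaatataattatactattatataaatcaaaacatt
mt-Rnr2, mt-Tl1, mt-Nd1 (GRCm38, plus strand, chrM:2616-2810): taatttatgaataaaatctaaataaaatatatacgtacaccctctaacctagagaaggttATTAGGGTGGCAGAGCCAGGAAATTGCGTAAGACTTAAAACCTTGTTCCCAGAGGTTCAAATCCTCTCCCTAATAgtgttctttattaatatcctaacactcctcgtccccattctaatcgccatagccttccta
The second window is where the values described below change, with mt-Rnr2 on one side of mt-Tl1 and mt-Nd1 on the other, and the first joins the 2 rRNAs, whose values were alike.

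Total reads over the listed genes were 17570335 to 18373707 per sample, and the deposited values were those reads divided by a size factor for each sample (normalized counts). Mitochondrial reads were summed over the listed transcripts, without the mitochondrial genes not analysed here. They took 15.1%, 16.3% and 15.8% of all reads in the 3 control samples and 13.4%, 13.9% and 12.9% in AKO samples. Each AKO sample was thus below each control sample, with means of 15.7% ± 0.600 (SD, n = 3) and 13.4% ± 0.509 (n = 3). Nrg4 itself had 3128, 3102 and 3092 normalized counts in control and 2577, 2627 and 2691 in AKO samples, a log2 fold change of -0.24 (SE 0.05, adjusted p = 0.298 with limma). By qPCR, the study found Nrg4 mRNA close to absent in iWAT of AKO mice. A whole-gene count does not separate the deleted part from the rest, and the reason for the unlike results was not tested. The adipocyte markers were abundant in every sample, with Fabp4, a fatty acid binding protein, at a mean of 200118 in control and 177481 in AKO samples. Among 7 adipocyte markers 6 were lower in AKO, and none was called by limma, edgeR or DESeq2.

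**Figure D1:**
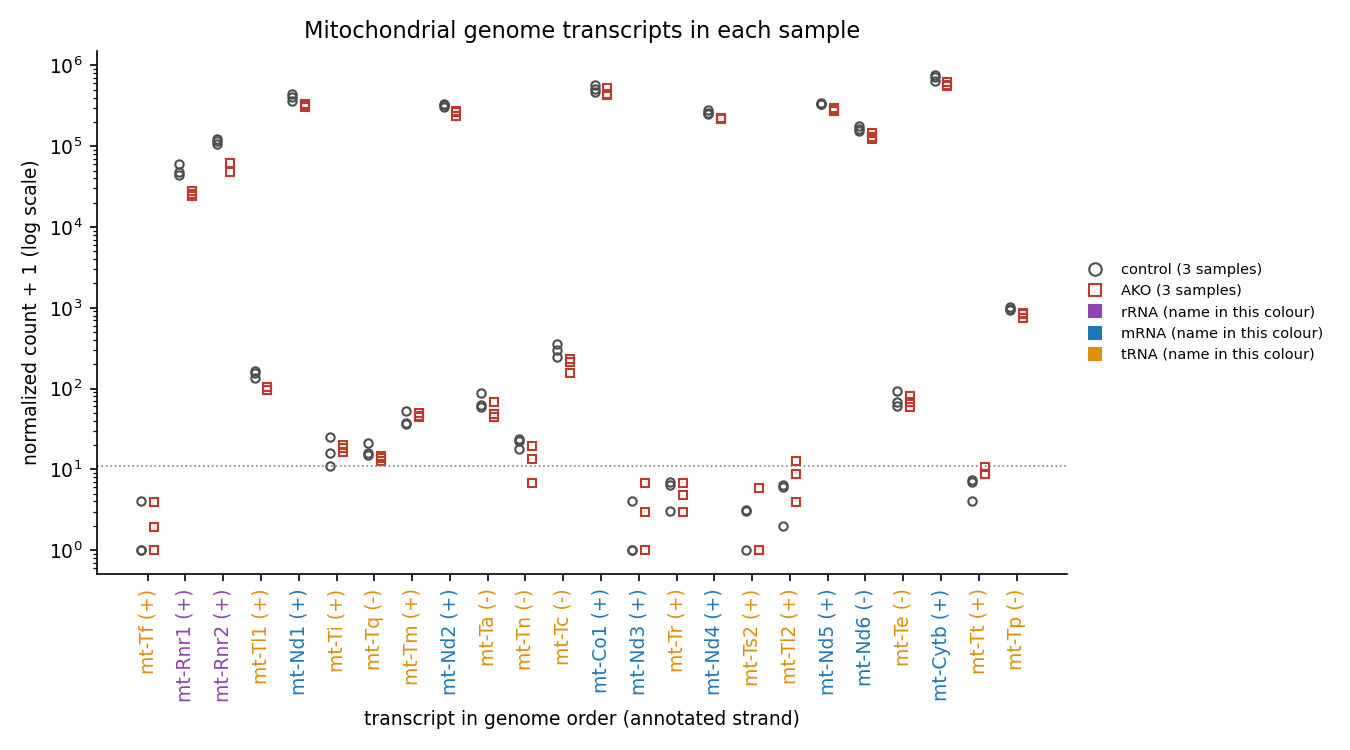
Normalized counts plus 1 (log axis) of the 24 mitochondrial genome transcripts in genome order, with circles for the 3 control and squares for the 3 AKO samples and the dotted line at a count of 10. The rRNAs and all mRNAs but mt-Nd3 are in the upper part, the tRNAs at 1028 or lower, with both rRNAs lower in each AKO than in each control sample.

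The abundance of the transcripts spanned several orders of magnitude and differed by class. Per length (reads per kilobase and per 1000000 listed reads, RPKM), mt-Cytb, the only mitochondrial subunit of complex III, was highest in control samples at 34001 ± 1925 (SD, n = 3), followed by mt-Nd1 of complex I at 22853 ± 1384. The next 3, mt-Co1 of complex IV at 18221 ± 1265, mt-Nd6 at 17250 ± 1107 and mt-Nd2 at 16843 ± 314, differed from their neighbors in this order by less than the larger SD. The complex I mRNAs mt-Nd4 at 10413 ± 254 and mt-Nd5 at 10096 ± 241 came next, apart by slightly more than either SD. The rRNAs stood below all of these at an RPKM of 3943 ± 134 for mt-Rnr2 and 2872 ± 375 for mt-Rnr1. The AKO means of these 9 transcripts were in the same order, from 29088 ± 1885 for mt-Cytb to 1544 ± 116 for mt-Rnr1. The most abundant tRNA on this scale was mt-Tp, the proline tRNA, at 798 ± 31.1, and mt-Tc, the cysteine tRNA, followed at 249 ± 43.6. The kit that made the libraries is not described in enough detail to say whether RNA was selected by poly(A) tail, so rRNA and tRNA levels cannot be read against mRNA levels as amounts in the cell. Reads assigned to a tRNA can also come from precursors that still hold it.

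Among the tested members the 2 rRNAs had the largest difference between the groups. mt-Rnr2 (chrM:1094-2675, plus strand) had 106950, 122135 and 114357 normalized counts in control and 61670, 48597 and 62573 in AKO samples. The groups did not overlap and the mean changed by -49.7% (114481 ± 7593 and 57613 ± 7822, SD, n = 3 each). Its log2 fold change was -1.00 (SE 0.13, adjusted p = 0.0909 with limma, 0.0528 with edgeR and 4.1e-18 with DESeq2). mt-Rnr1 (chrM:70-1024, plus strand) had 44026, 59550 and 47715 in control and 25831, 24067 and 27979 in AKO samples. Here too all AKO values were under all control values, and the log2 fold change was -0.95 (SE 0.13, adjusted p = 0.0909 with limma, 0.0771 with edgeR and 1.4e-14 with DESeq2). The 16S rRNA thus passed or missed the threshold of 0.05 according to the test, while its direction and size were alike in each. Of 13855 genes tested with limma, 0.0144% were called (Elovl3, a fatty acid elongase induced by cold, and Zfp949), and no mitochondrial transcript was among them. The ratio between the 2 rRNAs overlapped between the groups. mt-Rnr2 had 2.43, 2.05 and 2.40 reads per mt-Rnr1 read in control and 2.39, 2.02 and 2.24 in AKO samples (exact permutation test, 2-sided, p = 0.5, adjusted p = 0.9 over 3 ratios, where 3 against 3 samples cannot give less than 0.1).

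The 8 mRNAs followed with smaller differences, and 7 of them were abundant enough to be tested. All 7 had a negative log2 fold change, from -0.33 to -0.15 with a median of -0.28, against a median of 0.01 over all genes tested. In 6 of the 7, all but mt-Co1, each AKO sample was below each control sample, an order found in 8.31% of all genes tested. None was called by limma (adjusted p from 0.539 to 0.864) or edgeR, and DESeq2 called 4, mt-Nd1, mt-Nd2, mt-Nd4 and mt-Nd5. Over all members DESeq2 called 6 of the 21 to which it gave an adjusted p, each of them lower in AKO, where 0.757% of all genes with an adjusted p were called lower.

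The 5 tested complex I mRNAs encode core membrane subunits of NADH dehydrogenase. mt-Nd1 had 363300, 437922 and 403673 normalized counts in control and 326128, 332968 and 306065 in AKO samples, with a log2 fold change of -0.32 (SE 0.16, adjusted p = 0.590 with limma and 0.0211 with DESeq2). mt-Nd2 had 303035, 331955 and 327238 in control against 269268, 263854 and 233275 in AKO samples, a log2 fold change of -0.33 (SE 0.14, adjusted p = 0.549 with limma and 0.00793 with DESeq2). The lowest control sample of each exceeded the highest AKO sample. mt-Nd4 had 251073, 278718 and 260055 in control samples and nearly equal values in AKO, 218288, 220389 and 219604, a log2 fold change of -0.26 (SE 0.13). For mt-Nd5 the control samples gave 334906, 343091 and 334757 and the AKO samples 299554, 276298 and 282564, a log2 fold change of -0.24 (SE 0.14). Neither passed with limma, at adjusted p of 0.592 for mt-Nd4 and 0.661 for mt-Nd5, and DESeq2 gave 0.0160 and 0.0296.

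Of the other complexes, mt-Cytb had 645927, 771384 and 725491 normalized counts in control and 561756, 628177 and 567008 in AKO samples. These groups did not overlap, but its log2 fold change of -0.28 (SE 0.19) was not called by limma (adjusted p = 0.705) or by DESeq2 (0.0745). mt-Co1, the catalytic subunit of cytochrome oxidase, was the mRNA with the smallest difference when all samples were used. It had 467402, 571872 and 511892 in control samples and 448393, 519615 and 432024 in AKO samples, so that AKO replicate 2 exceeded the lower 2 control values (log2 fold change -0.15, SE 0.18, adjusted p = 0.864 with limma). Its log2 fold change was -0.07 without control replicate 2 and -0.23 without AKO replicate 2. The shares of the mRNA reads taken by each mRNA overlapped between the groups except for mt-Nd1, which took 14.8% ± 0.353 (SD, n = 3) in control and 14.2% ± 0.157 (n = 3) in AKO samples.

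**Figure D2:**
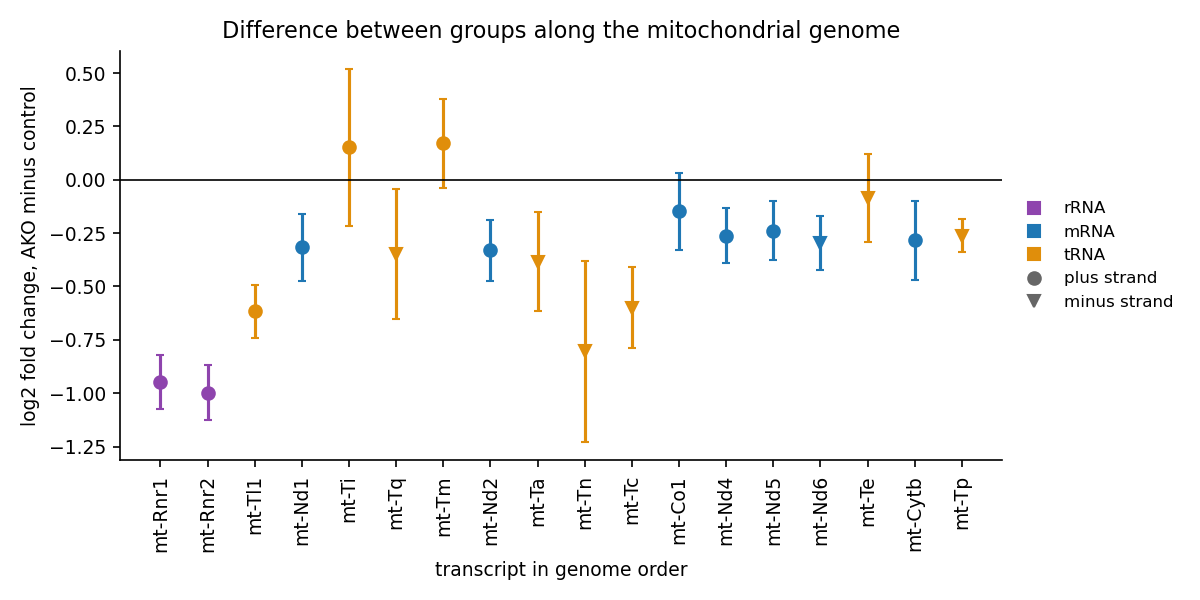
Log2 fold change, AKO minus control, of the 18 tested transcripts in genome order, with bars for the standard error from limma, color for the RNA class, circles for the plus and triangles for the minus strand. The rRNAs at the start lie near -1, the 7 mRNAs lie between -0.33 and -0.15 wherever they are, and the tRNAs spread from -0.80 to 0.17.

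Read counts of the classes were then set against each other within each sample, which removes the scaling between samples. It does not remove a difference between libraries in how much rRNA was kept, which was not tested. For each 100 mRNA reads there were 5.99, 6.27 and 5.91 rRNA reads in control samples and 3.85, 3.07 and 4.17 in AKO samples. The means were 6.06 ± 0.189 and 3.70 ± 0.565 (SD, n = 3 each), and no AKO sample reached a control value. Relative to mt-Nd1, the mRNA next to mt-Rnr2 on the precursor, mt-Rnr2 had a ratio of 0.294, 0.279 and 0.283 in control and of 0.189, 0.146 and 0.204 in AKO samples. mt-Rnr1 had a ratio to mt-Nd1 of 0.125 ± 0.00952 in control and 0.0810 ± 0.00969 in AKO samples. These ratios to mt-Nd1 were chosen after the values were seen. The exact permutation test gave p = 0.1 for each, the lowest that 3 against 3 samples allow, so it could not have passed. The step was thus between the rRNAs and the mRNAs, with mt-Tl1 between them in position and in value. Such a value was not particular to mt-Tl1. The other tested tRNAs had log2 fold changes from -0.80 (mt-Tn) to 0.17 (mt-Tm), with mt-Tc at -0.60. The rRNAs are also the first long transcripts of the plus strand, so RNA class and position cannot be told apart.

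**Figure D3:**
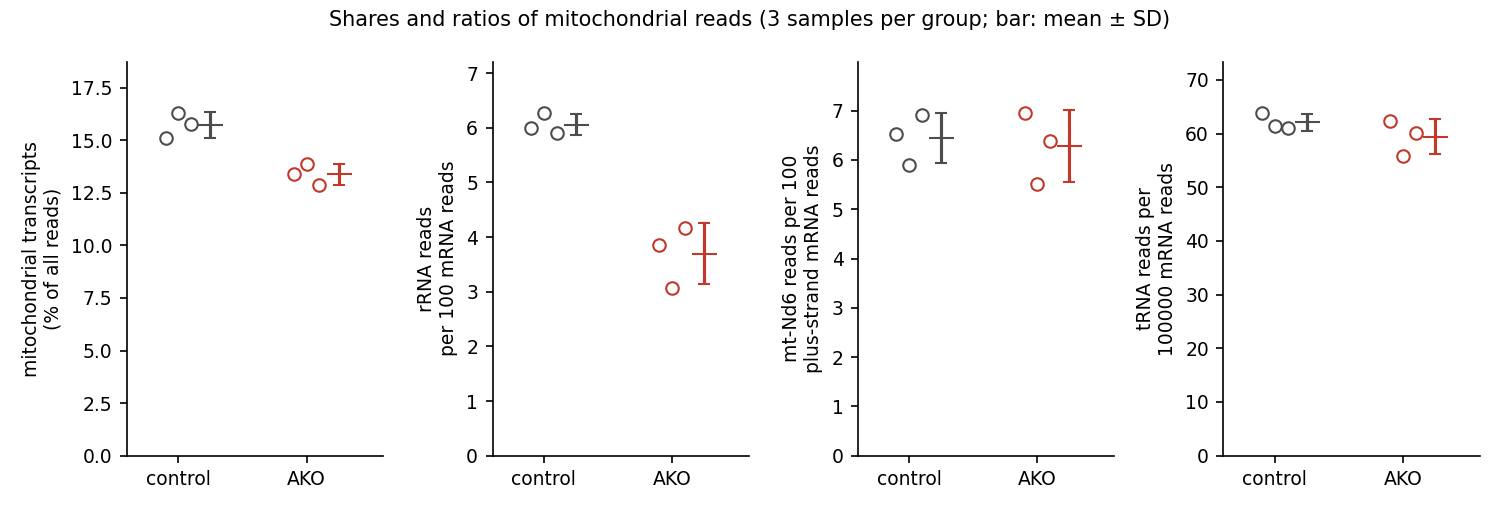
Reads of the listed mitochondrial transcripts as a percent of all reads, rRNA reads per 100 mRNA reads, mt-Nd6 reads per 100 plus-strand mRNA reads and tRNA reads per 100000 mRNA reads, with 1 circle per sample and the mean ± SD beside it (n = 3). The groups are apart in the first and second panels, where control values are 15.1 to 16.3 and 5.91 to 6.27, and overlap in the other two.

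The strands were compared first by the mRNA of the minus strand. mt-Nd6 (chrM:13552-14070, minus strand), a complex I subunit, shares its last 14 bases (chrM:13552-13565) with the end of mt-Nd5 on the plus strand. The last bases of both are shown because reads there belong to either gene unless strand was used in counting, which is not stated. The shared bases are in capitals.
mt-Nd5 (GRCm38, plus strand, chrM:13526-13565): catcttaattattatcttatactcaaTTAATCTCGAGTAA
mt-Nd6 (GRCm38, minus strand, chrM:13552-13591): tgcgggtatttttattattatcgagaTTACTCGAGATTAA
mt-Nd6 had 154350, 161177 and 177038 normalized counts in control and 147670, 123687 and 130250 in AKO samples, without overlap. Its log2 fold change of -0.30 (SE 0.13, adjusted p = 0.539 with limma, 0.0740 with DESeq2) was inside the range of the plus-strand mRNAs. Per 100 reads of the plus-strand mRNAs there were 6.52, 5.89 and 6.91 mt-Nd6 reads in control and 6.95, 5.52 and 6.38 in AKO samples, and the groups overlapped. The ratio of mt-Nd6 to mt-Nd5 was 0.487 ± 0.0369 in control and 0.467 ± 0.0233 in AKO samples (exact permutation test, p = 0.6, adjusted p = 0.9). That of mt-Nd6 to mt-Cytb was 0.231 ± 0.0190 and 0.230 ± 0.0330 (exact permutation test, p = 1, adjusted p = 1). Both overlapped between the groups, and since 3 against 3 samples cannot give a p under 0.1, these tests could not have passed and do not show that the ratios are equal. Over all tested transcripts the median log2 fold change was -0.35 for 7 minus-strand and -0.28 for 11 plus-strand members, the latter with both rRNAs. Among the tRNAs it was -0.37 for 6 on the minus strand, all of them negative, and 0.15 for 3 on the plus strand, of which 1 was negative, and the difference was not tested. Without strand in the counting, antisense reads over mt-Nd6 could not be told apart from its own.

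The tRNAs, which carry amino acids to the mitochondrial ribosome, gave few reads and the widest spread. Of 14 tRNAs 9 were tested, 7 with a negative and 2 with a positive log2 fold change, and none was called by limma, edgeR or DESeq2. mt-Tl1 (chrM:2676-2750), the tRNA between mt-Rnr2 and mt-Nd1, had 157, 165 and 134 normalized counts in control samples and 96.0, 104 and 94.5 in AKO samples. Its groups did not overlap, and its log2 fold change of -0.62 (SE 0.12, adjusted p = 0.254 with limma) lay between those of its neighbors mt-Rnr2 and mt-Nd1. mt-Tc (chrM:5192-5257, minus strand) had 301, 358 and 245 in control against 215, 153 and 229 in AKO samples, a log2 fold change of -0.60 (SE 0.19, adjusted p = 0.450). mt-Tp (chrM:15356-15422, minus strand), the most abundant, had 935, 978 and 1028 in control and 858, 845 and 752 in AKO samples, a log2 fold change of -0.26 (SE 0.08, adjusted p = 0.414). These 2 also had no overlap between the groups.

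Among the remaining tested tRNAs, mt-Tq (glutamine) had 15.1, 14.0 and 20.3 normalized counts in control and 13.4, 12.7 and 11.6 in AKO samples, without overlap, at a log2 fold change of -0.35 (SE 0.31, -0.20 without control replicate 3). mt-Tn (asparagine) at -0.80 (SE 0.42), mt-Ta (alanine) at -0.38 (SE 0.23) and mt-Te (glutamate) at -0.08 (SE 0.21) overlapped between groups. Of these, mt-Tn was at -0.39 without AKO replicate 2 and mt-Ta at -0.21 without control replicate 2. The 2 with higher means in AKO, mt-Ti (isoleucine) at 0.15 (SE 0.37) and mt-Tm (methionine) at 0.17 (SE 0.21), overlapped as well. With samples left out, mt-Tm ran from 0.08 (without control replicate 3) to 0.34 (without control replicate 2). These 6 tRNAs had 6 to 90 reads per sample, and their standard errors of 0.21 to 0.42 compare with 0.13 to 0.19 for the mRNAs. Summed over the class, tRNA reads per 100000 mRNA reads were 63.8, 61.4 and 61.0 in control and 62.2, 55.9 and 60.1 in AKO samples. The sum is mostly mt-Tp and mt-Tc, and it overlapped between the groups.

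Counted over all members, 18 of 24 had a mean normalized count of at least 10 and were tested. Of these, 16 had a negative log2 fold change, where 48.1% of all genes tested did. In 12 of the 18 all AKO samples were under all controls, against the same 8.31% of all genes tested. An unadjusted p under 0.05 with a lower value in AKO was found in 6 (mt-Rnr1, mt-Rnr2, mt-Tl1, mt-Tc, mt-Tp and mt-Nd6), against 4.69% of all genes tested. The members share their precursors and their denominator, so these counts are not counts of independent events. The median log2 fold change was -0.31 over the 18, -0.97 over the rRNAs, -0.28 over the mRNAs and -0.35 over the tRNAs.

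Along the genome, the 3 tested transcripts nearest the start of the plus-strand precursor, mt-Rnr1, mt-Rnr2 and mt-Tl1, had the largest differences of the plus strand. From mt-Nd1 on, the plus-strand mRNAs showed no steady trend: the log2 fold change was -0.32 for mt-Nd1, -0.33 for mt-Nd2, -0.15 for mt-Co1, -0.26 for mt-Nd4, -0.24 for mt-Nd5 and -0.28 for mt-Cytb, the last of them. The distance between the lowest and the highest of them did not exceed the largest of their standard errors, which were 0.13 to 0.19. On the minus strand, the values were -0.26 for mt-Tp, -0.08 for mt-Te, -0.30 for mt-Nd6, -0.60 for mt-Tc, -0.80 for mt-Tn, -0.38 for mt-Ta and -0.35 for mt-Tq, in the order in which that strand is read from mt-Tp.

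The other 6 members fell short of the minimum and were not tested. mt-Tf, mt-Tr, mt-Ts2, mt-Tl2 and mt-Tt are tRNAs with 0 to 12 reads per sample. mt-Tt, the threonine tRNA, had all 3 AKO samples (9.60, 7.81 and 7.71 normalized counts) above all 3 control samples (6.02, 6.45 and 3.05), at 3 to 10 reads each. mt-Nd3, an mRNA of complex I (chrM:9459-9806, plus strand), had 0, 0 and 3 reads in control samples and 0, 6 and 2 in AKO samples, although the other mRNAs had at least 126689 reads in each sample. Its RPKM was 0.159 ± 0.275 in control and 0.424 ± 0.488 in AKO samples (SD, n = 3). No difference could be detected with so few reads assigned to it.

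The sequence of mt-Nd3 is nearly the same as that of Gm28438, a pseudogene on chromosome 1. The copy aligned over 345 bases with 1 differing base, an identity of 99.7%. The first 60 bases of both are shown with the differing base in capitals.
mt-Nd3 (GRCm38, plus strand, chrM:9459-9518): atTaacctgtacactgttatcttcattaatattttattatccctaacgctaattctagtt
Gm28438 (GRCm38, minus strand, chr1:24613060-24613119): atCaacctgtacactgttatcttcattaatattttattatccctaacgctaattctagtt
Across the mitochondrial mRNAs, the share of 50-base windows that also occur exactly in an annotated nuclear transcript was 98.0% for mt-Nd3, 62.2% for mt-Nd4, 51.1% for mt-Co1, 8.19% for mt-Nd2 and 7.61% for mt-Nd5. It was 0 for mt-Nd1, mt-Nd6, mt-Cytb and mt-Rnr1, and 1.04% for mt-Rnr2. How the counting treated reads that match both places is not given in the sources used here, and its part in the level of mt-Nd3 was not tested. The counts of mt-Nd4 and mt-Co1 are uncertain for the same reason, and the transcripts without such windows, mt-Nd1, mt-Nd6 and mt-Cytb, had log2 fold changes of -0.32, -0.30 and -0.28.

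**Figure D4:**
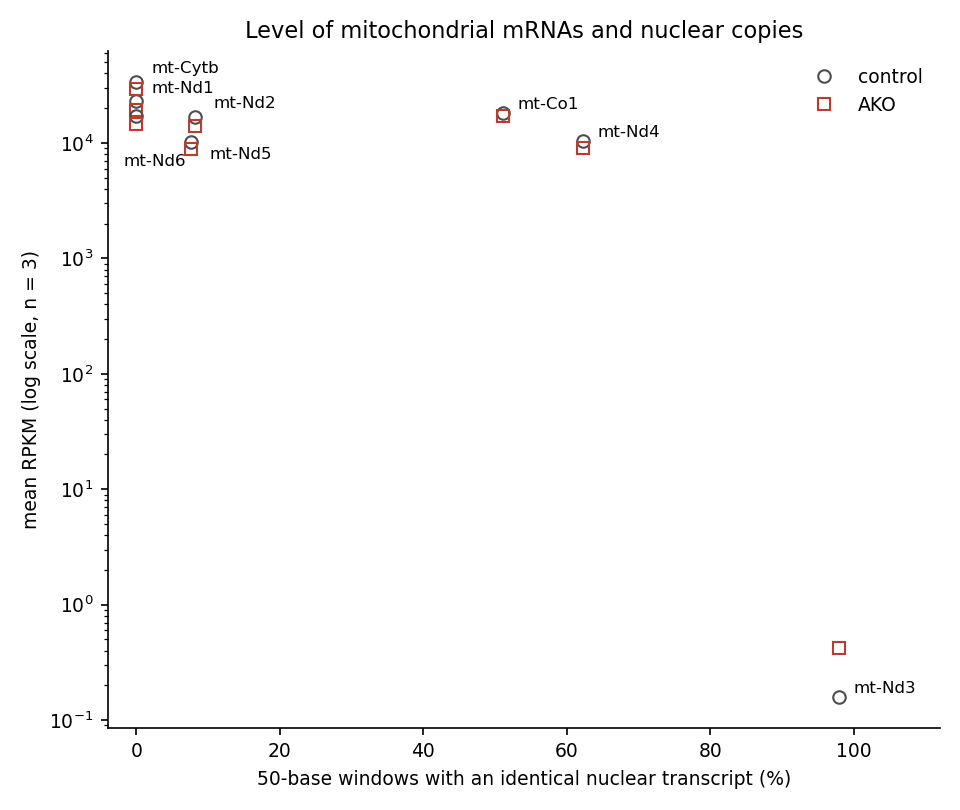
Mean RPKM (log axis, n = 3) of the 8 mitochondrial mRNAs against the percent of their 50-base windows that occur exactly in an annotated nuclear transcript, with circles for control and squares for AKO. mt-Nd3, at 98.0% of windows, lies below an RPKM of 1, and the other 7 are at 8912 or above.

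Subunits of the same complexes encoded in the nucleus gave the comparison with the other genome. Of 35 nuclear complex I subunits, 34 had a negative log2 fold change, where 48.1% of all genes tested did. Their median was -0.19, and none was called by limma. Ndufv1, the subunit that binds NADH, was the 1 complex I subunit called by DESeq2 (log2 fold change -0.34, SE 0.08, adjusted p = 0.0187 with DESeq2 and 0.315 with limma), and it was chosen for its call. Of all genes with an adjusted p, DESeq2 called 0.757% lower. The largest difference down was in Ndufs8, at -0.35 (SE 0.12), and the only value up was in Ndufb4, at 0.09 (SE 0.17). In complex III all 9 nuclear subunits were negative with a median of -0.26, from Uqcrc2, a core subunit, at -0.34 (SE 0.08, adjusted p = 0.0132 with DESeq2 and 0.315 with limma) to Uqcrb at -0.11 (SE 0.10). Of 16 complex IV subunits 15 were negative with a median of -0.17, against the same 48.1% of all genes tested. Limma called none and DESeq2 called 2, Cox7a1 and Cox8b, both lower, against the same 0.757% of all genes. Cox7a1, a subunit of heart, muscle and thermogenic fat, had the lowest value (log2 fold change -1.07, SE 0.21, adjusted p = 0.233 with limma and 2.5e-05 with DESeq2). Cox6a2, a muscle isoform, had the highest at 2.29 (SE 1.17, adjusted p = 0.605 with limma), with 3.01, 109 and 47.8 normalized counts in control and 46.1, 183 and 291 in AKO samples.

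The mean log2 level of the mitochondrial mRNAs minus that of the nuclear subunits was then taken in each sample. For complex I (5 mitochondrial and 35 nuclear) it was 7.71, 7.51 and 7.65 in control and 7.67, 7.50 and 7.40 in AKO samples, for complex III (1 and 9) 7.70, 7.59 and 7.70 against 7.69, 7.69 and 7.47, and for complex IV (1 and 16) 9.15, 8.75 and 8.90 against 8.94, 9.03 and 8.64. All 3 overlapped between the groups, with differences of -0.10, -0.05 and -0.06. With samples left out, the difference of complex I ran from -0.18 (without AKO replicate 1) to -0.04 (without AKO replicate 3). Both mitochondrial subunits of complex V were not analysed here. Its nuclear subunits had a median log2 fold change of -0.14 (14 of 17 negative), from Atp5l at -0.66 (SE 0.28) to Atp5g1 at 0.66 (SE 0.20), both under 60 normalized counts per sample. Complex II, which is wholly nuclear, had 4 of 4 negative with a median of -0.21, from -0.24 (SE 0.10) in Sdhd to -0.20 (SE 0.10) in Sdhc. No subunit of complex II or V was called by limma, edgeR or DESeq2.

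**Figure D5:**
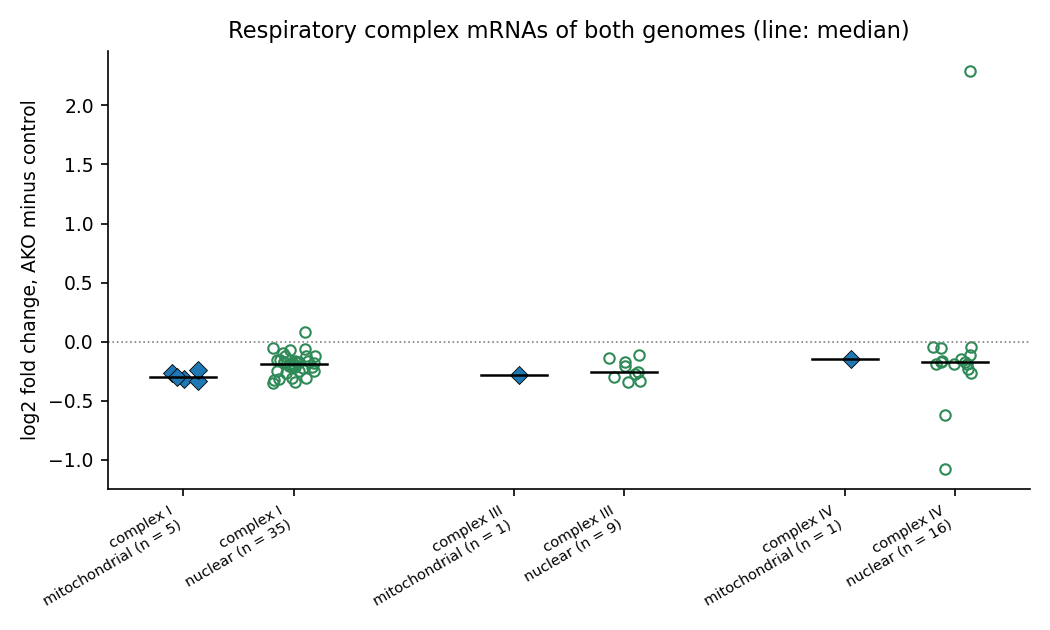
Log2 fold change, AKO minus control (limma), of mRNAs of complexes I, III and IV, with diamonds for mitochondrial and circles for nuclear genes and a line at the median. The medians are -0.30 and -0.19 for complex I, -0.28 and -0.26 for complex III, and -0.15 and -0.17 for complex IV, and the nuclear genes far from the rest are Cox6a2 above and Cox7a1 and Cox8b below.

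Nuclear genes that copy mitochondrial DNA, transcribe it and process or degrade its RNA were examined in 4 lists of 78 genes, of which 77 were tested. None was called by limma, edgeR or DESeq2, and at an unadjusted p under 0.05 with limma there were 8 lower and 0 higher, where 4.69% of all genes tested were lower at that p and 4.41% higher. The log2 fold changes ran from -0.33 to 0.16 with a median of -0.13, and 62 were negative. Among the transcription genes all 10 tested were negative: Polrmt, the mitochondrial RNA polymerase, had a mean of 616 ± 80.9 normalized counts in control and 541 ± 45.4 in AKO samples (SD, n = 3), a log2 fold change of -0.18 (SE 0.11). Tfam, which packages the genome and starts transcription, was at -0.13 (SE 0.09), the initiation factor Tfb2m at -0.19 (SE 0.14), and Mterf2 at -0.27 (SE 0.13). All 4 overlapped between the groups. In the replication and maintenance list 11 of 17 were negative, with Mgme1, a nuclease, at -0.17 (SE 0.08), the helicase Twnk (Peo1 in the table) at -0.23 (SE 0.11) and the polymerase Polg at -0.02 (SE 0.10).

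In the list for RNA processing and modification 30 of 37 were negative, and the smallest unadjusted p were those of the RNA-binding proteins Tbrg4, at -0.28 (SE 0.07, adjusted p = 0.315 with limma), and Ptcd3, at -0.26 (SE 0.07, adjusted p = 0.374). Elac2, which cuts the 3′ ends of tRNAs from the precursor, was at -0.09 (SE 0.07) with overlapping groups. In the list for stability and decay 11 of 13 were negative. Lrpprc, which stabilizes mitochondrial mRNAs, had 1420, 1538 and 1211 normalized counts in control against 1086, 1202 and 1092 in AKO samples, without overlap (log2 fold change -0.30, SE 0.10, adjusted p = 0.472 with limma). Its partner Slirp was at -0.03 (SE 0.20) and the RNA granule protein Grsf1 at -0.19 (SE 0.08). Of 76 tested genes of mitochondrial ribosomal proteins, a list added after the rRNA values were seen, 66 were negative with a median log2 fold change of -0.13, and none was called by limma, edgeR or DESeq2. The median of the 2 rRNAs, with which these proteins assemble, was -0.97.

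Markers of cell types were examined in the same samples. The 7 markers of thermogenic adipocytes were all lower in AKO, where 48.1% of all genes tested had a negative log2 fold change. DESeq2 called 6 of them, against 0.757% of all genes with an adjusted p called lower. Of these, 1 (Elovl3) was also called by limma and edgeR, and limma called 0.0144% of all genes tested. The summed level of the 7 was 27631 to 39747 normalized counts in control and 11372 to 14847 in AKO samples. This list shares Cox7a1 and Cox8b with complex IV. Ucp1, the uncoupling protein, had 18058, 25393 and 16827 in control and 5401, 4836 and 7801 in AKO samples, a log2 fold change of -1.75 (SE 0.21, adjusted p = 0.0703 with limma and 2.0e-06 with DESeq2), and Cidea, a lipid droplet protein, was at -0.82 (SE 0.16). The 12 skeletal muscle markers, 9 of them higher in AKO and none called, summed to 177, 26607 and 14502 in control and 19578, 74664 and 114615 in AKO samples, and Acta1 had 62.2 normalized counts in control replicate 1 and 27039 in AKO replicate 3. These sums overlapped between the groups. The mitochondrial share of reads was, in the same order, 15.1%, 16.3% and 15.8% in control and 13.4%, 13.9% and 12.9% in AKO samples, so that the sample with the most muscle RNA had the highest share among controls and the lowest in AKO. Without control replicate 1, which had the least muscle RNA, the log2 fold change was -1.04 for mt-Rnr1 and -1.05 for mt-Rnr2, and without AKO replicate 3, which had the most, it was -1.00 and -1.06.

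Macrophage markers (7 of 7 higher in AKO, 4 of them at an unadjusted p under 0.05, against 4.41% of all genes tested, and none called) summed to 9236 to 12981 in control and 11396 to 15592 in AKO samples, which overlapped. Sums also overlapped for lymphocytes (155 to 919 and 131 to 1331), mammary epithelium (10.8 to 1183 and 132 to 1550), endothelium (16646 to 17901 and 15373 to 17611) and smooth muscle (4541 to 5858 and 4367 to 7366), and none of these markers was called by limma, edgeR or DESeq2. The adipocyte sum was 525719 to 571610 in control and 455396 to 519358 in AKO samples. The part that the mix of cells had in the mitochondrial values was not tested.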

How the data were processed

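RNA-Seq of iWAT was performed by the authors on 3 control and 3 AKO samples, each pooled from 2 mice. The cold exposure is 10 days in the labels and 12 in the study's text. The authors aligned reads with STAR to GRCm38.p6 (mm10 in the submitters' processing notes) and counted them with featureCounts on GENCODE M25. The deposited values are a signal, the reads of a gene over the size factor that DESeq2 gave its sample. The deposited log2 fold changes, p-values and adjusted p-values of the authors' own comparison were not used. Strand setting, read selection and the filter on rows are not given in the sources used here.

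Dividing each column by its smallest step gave whole reads for 100% of values (within 0.01). The main test was limma 3.58.1 in R 4.3.3 with a variance trend, fitted to log2(value + 1) of 13855 genes (mean value 10 or more), at a Benjamini-Hochberg adjusted p under 0.05 over all of them. Log2 fold changes are on that scale and understate the change of low genes. edgeR 4.0.16 (quasi-likelihood, TMM), DESeq2 1.42.0 and limma-voom were run on the recovered reads as alternatives, with other pseudocounts, filters and scalings, the replicate number as a block, and each sample left out in turn. The scripts were tested on simulated data. RPKM used the listed reads and the annotated length. Single ratios used an exact permutation test, and sums over members have no test. Coordinates and sequences are from GENCODE M21 (GRCm38), by transcript identifier. No replicate was described beyond its pool, so p-values measure the spread between these pools.

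Named genes were all members, Nrg4, set genes of 4 nuclear lists with the 2 smallest p of each, the extremes of each complex and the 2 most abundant of each marker list, of which only the ones a result touches are given. The members and lists were chosen with earlier results of these data known.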

Additional observations from a re-analysis of the deposited data

How the results depend on the processing

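The median log2 fold change of the mitochondrial transcripts stayed negative in all 18 alternatives, from -0.36 to -0.26, and mt-Rnr1 (-1.04 to -0.82, adjusted p 1.4e-14 to 0.311) and mt-Rnr2 (-1.06 to -0.88, adjusted p 4.1e-18 to 0.285) kept their direction. The number called, 0 with limma, was 6 with DESeq2 and 1 with edgeR and RLE factors (mt-Rnr2, adjusted p = 0.0446). Over all genes, 2 were called with limma, 149 with DESeq2, 5 with edgeR and RLE factors, 3 with edgeR and TMM factors, 6 with a minimum of 10 in every sample, 1 with limma-voom and 0 to 3 when each sample was left out. The cause was not tested. At an unadjusted p under 0.05, limma gave 1261 genes. No nuclear gene for mitochondrial DNA and RNA was called in any of the 18. The same replicate number did not pair samples (correlations of 0.14, -0.35 and 0.24), and with the replicate block limma called 0 members and 2 genes, and edgeR, an alternative added after seeing the data, 0 and 2. Signs turned in values near 0: mt-Ti ran from -0.139 (without control replicate 1) to 0.462, and mt-Te from -0.220 to 0.0896 (0.0269 without AKO replicate 1, 0.0896 without control replicate 3). The log2 ratio of mt-Nd6 to plus-strand mRNAs ran from -0.115 to 0.0518 with samples left out (0.0130 without control replicate 3, 0.0518 without AKO replicate 2). That of mitochondrial to nuclear mRNAs ran from -0.0858 to 0.0244 in complex III (the highest without AKO replicate 3) and from -0.153 to 0.0521 in complex IV (0.0464 without control replicate 1, 0.0521 without AKO replicate 3), and it was 0.0569 in complex IV with sums. The other scalings moved the median of all genes by 0.01 and 0.02. Of the tRNAs, 5 fell below the minimum, for a reason that was not tested.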
